A study of Mus musculus with 59 samples.

Results

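The C/D box small nucleolar RNA (snoRNA) genes described here are the features whose symbol starts with Snord and that had 30 or more raw counts summed over the 12 small RNA input libraries of liver and VsWAT. Of 99 such features in a table of 55273, 43 met the rule. The other 56 were listed at 0 in each of the 59 libraries, so nothing lay near the threshold: the lowest members were Snord93 with 51 summed counts and Snord7 with 59. Snord33, Snord22, Snord47, Snord14a, Snord95 and 17 copies of Snord116 were among the features listed at 0. Of 42 Snora features 22 were likewise listed at 0, and of 1190 Mir features 594. What sets these rows to 0 was not tested, and it is not read here as absence of the RNA. Since the members were chosen by their counts in small RNA input, their input levels and the small RNA changes measured against input in liver and VsWAT are given as descriptions with no p-value, and counts of calls made with them are printed beside the share of all features called, with nothing read from them.

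Male mice aged 12 weeks, on a high-fat or a low-fat diet for 2 weeks, gave RNA from liver, kidney, VsWAT (a label that is not spelled out) and plasma. Every group has the same FVB.129P2 strain background and carries Cyp3a13tm1Ahs, a targeted Cyp3a13 allele, Del(5Cyp3a57-Cyp3a59)1Ahs, which removes a stretch of the Cyp3a cluster, and the transgene Tg(APOE-CYP3A4)A1Ahs, human CYP3A4 with APOE sequences, so no group is a wild type. The series title names iTag labelling of RNA, and libraries are labelled pull-down, input or total; the labels do not say which cells carried the tag. High-fat and low-fat libraries numbered 3 and 3 for pull-down and for input in liver mRNA, 3 and 2 for each in kidney mRNA, 3 and 2 for pull-down and 3 and 3 for input in liver small RNA, 3 and 3 for each in VsWAT small RNA, 2 and 2 for each in plasma small RNA, and 3 and 3 in VsWAT total RNA. The labels do not tie a group's libraries to different animals; a p-value here therefore sets a difference against library-to-library spread, part of which may be technical.

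C/D box snoRNAs pair with ribosomal RNA and direct 2'-O-methylation by fibrillarin (Fbl), which they carry together with Nop56, Nop58 and Snu13. In mammals most of them are released from introns of host genes, often genes of ribosomal proteins or of noncoding RNAs that are degraded after splicing. U8 (Snord118), needed for processing of the 28S and 5.8S ribosomal RNAs, and U13 (Snord13), which guides acetylation of the 18S RNA, are instead made as capped transcripts from promoters of their own. The snoRNAs in the introns of Rpl13a have been tied to the toxic effect of saturated fatty acids in cultured cells.

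The members are 28 to 221 nt long, with a median of 68 nt. In the RefSeq annotation of GRCm38.p6, the assembly of mm10, 39 lie within a host gene and 4 do not: Snord104 (chr11:106500991-106501063), Snord118 (chr11:69073426-69073562), Snord13 (chr8:31149861-31149958) and Snord89. A host here is a gene whose span holds the member. Strands were not compared, so a listed host need not be the gene that releases the RNA, and Snord91a is listed in both Tsr1 and Srr. Hosts were ribosomal protein genes for 11 members, and for 9 members a host was a long noncoding RNA gene. A pair of hosts carried 3 members each. Rpl13a, a ribosomal protein gene, holds Snord32a (chr7:45127383-45127463), Snord34 (chr7:45126603-45126668) and Snord35a (chr7:45126347-45126435). The noncoding RNA gene 2410006H16Rik holds Snord65 (chr11:62604530-62604586), Snord49a (chr11:62603460-62603521) and Snord49b (chr11:62603086-62603148). Members of one host share its annotated start but differed in pull-down, as the small RNA results below show, so the start of each of these hosts is printed, 70 bases before to 30 bases after it, from RefSeq (GRCm38.p6). Many snoRNA host transcripts belong to a class that starts with C followed by a run of pyrimidines; capitals mark CTTTC, the 1 motif searched for on both strands.
Rpl13a, chr7:45128716-45128815, minus strand: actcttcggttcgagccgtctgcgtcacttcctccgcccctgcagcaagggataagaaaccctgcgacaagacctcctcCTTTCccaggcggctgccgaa
2410006H16Rik, chr11:62602807-62602906, plus strand: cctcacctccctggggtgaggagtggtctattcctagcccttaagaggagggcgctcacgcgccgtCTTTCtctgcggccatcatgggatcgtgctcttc
Each window holds the motif on its own strand and not on the other, from 4 bases before the annotated start in 2410006H16Rik and 10 bases after it in Rpl13a. Of 32851 windows of this length in the table, 12.6% hold it on their strand and 23.1% on either strand. A match is a description of the letters and not a mapped start.

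Library totals were 3389320 to 4426392 counts for pull-down and 3033702 to 4942158 for input in liver mRNA, 3741335 to 13713002 and 7970076 to 19645443 in kidney mRNA, 573697 to 3338652 and 875970 to 3608065 in liver small RNA, 1867345 to 2580104 and 881578 to 2220123 in VsWAT small RNA, and 221875 to 646964 and 327144 to 828030 in plasma, with pull-down first in each pair; VsWAT total RNA had 2556411 to 7940309. CPM below are counts divided by these totals and multiplied by 1e6. The tissue labels were checked with 8 markers each: hepatocyte markers summed to 26270 to 54010 CPM in liver small RNA input, with Adipoq at 0 in every liver mRNA library, and adipocyte markers to 10330 to 12530 CPM in VsWAT small RNA input. VsWAT libraries also held hepatocyte RNA, at 53.1 to 1512 CPM in pull-down and 170 to 1458 CPM in input. In plasma the erythroid markers summed to 12050 to 26430 CPM in pull-down and 20580 to 43210 CPM in input, and Alb ranged over 18.1 to 6280 CPM in pull-down and 1.8 to 55.0 CPM in input. In liver mRNA, input low-fat 1 differed from low-fat 2 and 3 by a chi-square per degree of freedom of 62.5 and 58.8. Kidney tubule markers summed to 188.5 CPM in that library (11.2 to 51.4 CPM in the other liver mRNA inputs). Erythroid markers summed to 1734 CPM there (334 to 686 CPM in the others). The part of this in its snoRNA values was not tested. Input high-fat 1 and 3, and input low-fat 2 and 3, lay close to sampling noise (1.18 and 1.13, each beyond noise, so kept as separate libraries). Kidney mRNA inputs were uneven too, though this measure grows with depth. High-fat 1 differed from high-fat 2 and 3 by 91.4 and 92.3 (6.19 between those), and low-fat 1 from low-fat 2 by 46.9. The plasma high-fat pull-down libraries differed by 86.2.

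In the small RNA libraries the members took a smaller share of counts in pull-down than in input. In liver they held 0.225% to 0.434% of counts in pull-down and 0.927% to 2.61% in input, and in VsWAT 0.152% to 0.386% in pull-down and 1.34% to 2.28% in input. Neither pair of groups overlapped. In plasma the shares overlapped, at 0.179% to 0.365% in pull-down and 0.200% to 0.219% in input. VsWAT total RNA held 0.0898% to 0.166%. In the mRNA libraries the members were rare: 0.00292% to 0.00723% in pull-down and 0.00198% to 0.0804% in input of liver, where the highest value is that of input low-fat 1 against a median of 0.00659%, and 0.00274% to 0.00412% in pull-down and 0.00368% to 0.00544% in input of kidney.

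**Figure D1:**
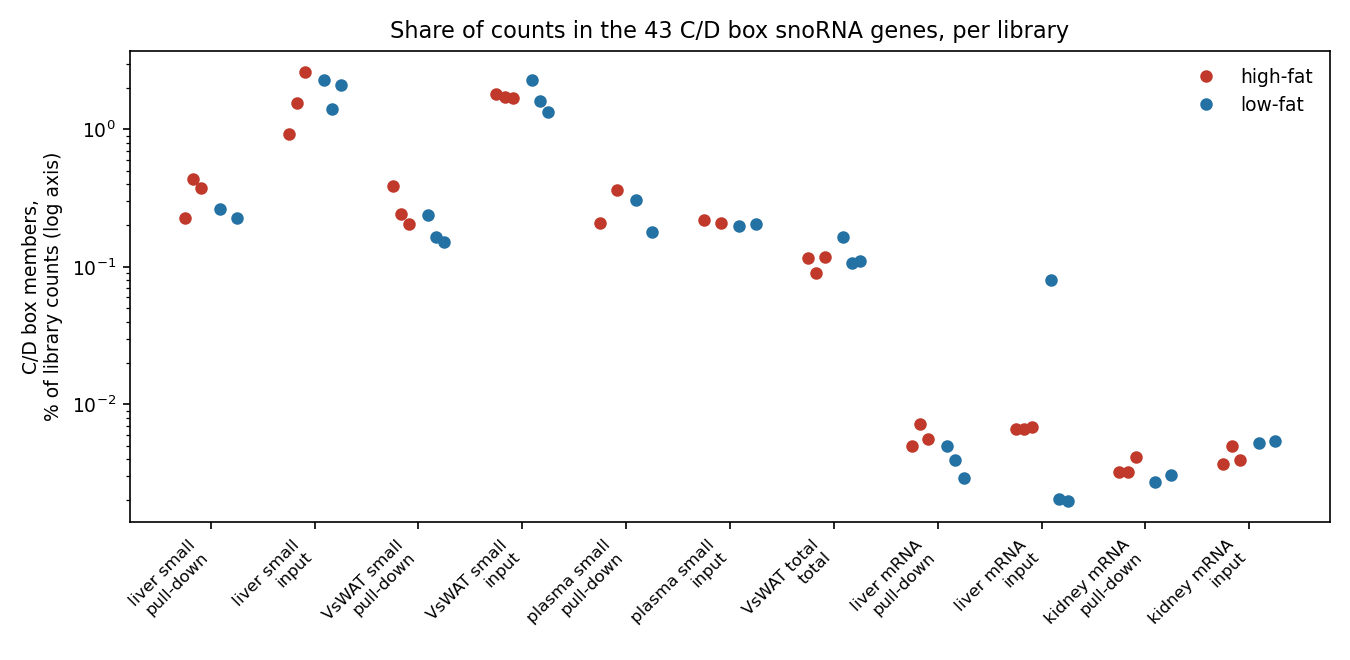
Share of each library's counts (percent, log axis) held by the 43 C/D box snoRNA genes, one point per library, high-fat in red and low-fat in blue, pull-down left of input in each set. Liver small RNA pull-down libraries sit at 0.225% to 0.434% and inputs at 0.927% to 2.61%; 1 liver mRNA input library, low-fat 1, stands at 0.0804%.

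A few genes made up much of the signal. In liver small RNA input, Snord104, Snord32a, Snord118, Snord65, Snord87 and Snord13 held 55.2% of member counts. In VsWAT input the leading 6 were Snord65, Snord32a, Snord87, Snord59a, Snord49a and Snord118, with 52.1%. The order of levels was close between the tissues (r = 0.94 and rho = 0.95 over the 43 members, on mean log2 CPM; points share libraries, so no test is given). Per length the highest input levels were Snord104 with 4125 CPM per 100 nt, Snord65 with 2625 and Snord32a with 2339 in liver, and Snord65 with 4549, Snord32a with 2665 and Snord87 with 1825 in VsWAT.

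Snord104 and Snord123 departed most from that shared order. Snord104, which has no host in the annotation, averaged 3011 ± 1322 CPM in liver input and 578 ± 184 CPM in VsWAT input (SD, n = 6 each), a ratio of 5.21. The lowest liver input, at 1632 CPM, lay above the highest VsWAT input, at 796 CPM. Snord123 (chr15:32241845-32241932, in the noncoding gene Snhg18) ran the other way, with 3.63 ± 1.74 CPM in liver input and 83.0 ± 27.9 CPM in VsWAT input (SD, n = 6 each), a ratio of 0.0437 on only 31 counts over the 6 liver libraries. In bulk tissue, fewer cells of a type and less RNA per cell cannot be told apart.

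Most members lay far below input in pull-down, by amounts that differed widely from gene to gene. Log2 changes are edgeR fits on TMM-scaled counts, pull-down over input. In liver, 40 of the 43 members passed the filter on low counts. They ran from −6.32 to −1.26 with a median of −4.13, where the median of the 8401 features tested was 0.10. In VsWAT, 41 passed and ran from −5.83 to −0.13 with a median of −3.61, against 0.01 over 11339 features. An adjusted p under 0.05 with a lower level was met by 40 members in liver, where 28.3% of features met it, and by 38 in VsWAT, where 23% did; since input chose the members, nothing is read from these counts. Scaling by total count alone moves the median of all features to 1.23 in liver and 0.64 in VsWAT, and the members' medians to −2.94 and −2.96. In CPM, pull-down lay wholly below input for 29 members in liver and 32 in VsWAT (4.87% and 4.51% of features).

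H/ACA box snoRNAs, which guide pseudouridylation, and microRNA genes lay low as well. Of the 28 H/ACA and scaRNA genes with 30 or more of the same counts, 25 were tested in liver with a median log2 change of −4.64 and 28 in VsWAT with −3.74. MicroRNA genes had medians of −4.36 over 43 tested in liver and −3.01 over 65 in VsWAT. Whether the C/D box genes differ from these classes was not tested.

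U8 and U13, the members with promoters of their own, were low in pull-down in both tissues. Snord118 had 27.3, 47.9 and 68.0 CPM in high-fat and 99.96 and 49.2 CPM in low-fat liver pull-down, against 1209, 1697 and 2243 CPM (lowest, median and highest of 6) in liver input. Its fitted change was −6.05 ± 0.43 SE in liver and −4.43 ± 0.24 SE in VsWAT. Snord13 had 38.9, 76.0 and 47.1 CPM in high-fat and 63.9 and 72.6 CPM in low-fat liver pull-down, against 405, 1035 and 1434 CPM in liver input, with changes of −5.20 ± 0.48 SE in liver and −4.64 ± 0.29 SE in VsWAT. No pull-down library of either tissue reached an input library for these genes.

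The Rpl13a members were likewise low in pull-down. Snord32a had 76.7, 110 and 26.2 CPM in high-fat and 90.8 and 76.5 CPM in low-fat liver pull-down, against 470, 1996 and 2890 CPM in liver input. In VsWAT it had 32.5, 60.0 and 122 CPM in pull-down against 1306, 2289 and 2580 CPM in input. No pull-down library reached an input library in either tissue. Its log2 changes were −5.80 ± 0.57 SE and −5.64 ± 0.34 SE, those of Snord34 −5.27 ± 0.40 SE and −3.84 ± 0.20 SE, and those of Snord35a −4.67 ± 0.44 SE and −5.20 ± 0.23 SE, each in liver and then in VsWAT. Snord33, the remaining Snord feature of this host, was listed at 0.

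The members of 2410006H16Rik differed most among themselves. Snord65 had changes of −5.80 ± 0.46 SE in liver and −5.83 ± 0.25 SE in VsWAT, Snord49b −5.46 ± 0.51 SE and −3.63 ± 0.23 SE, and Snord49a −3.24 ± 0.38 SE and −1.86 ± 0.22 SE. In VsWAT, Snord49a kept 251 to 517 CPM in pull-down against 763 to 1515 CPM in input, whereas Snord65 had 53.3 to 111 CPM in pull-down against 1427 to 3092 CPM in input. These RNAs share the host start shown above, and their changes spanned 2.57 log2 units in liver and 3.97 in VsWAT. The spans were 1.13 and 1.80 for Rpl13a, 0.75 and 0.82 for Nop58 (Snord11, Snord70), 0.30 and 0.82 for Rpl3 (Snord83b, Snord43) and 0.49 and 1.28 for Wdr43 (Snord92, Snord53). In liver Snord65 and Snord49b lay within 1 SE of each other, as did Snord32a and Snord34. Length and change had r = 0.11 over 40 members in liver and r = 0.01 over 41 in VsWAT, given as a description.

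The smallest changes were those of Snord71, Snord15a, Snord88c, Snord73a and Snord82. On the TMM scale all were below 0, and in VsWAT those of Snord71, Snord15a and Snord88c were near 0. The sign of these VsWAT values rests on the scaling, since total-count scaling raises the median of all features as given above. Snord71 (chr8:109839312-109839375, in Ap1g1, an adaptor subunit of clathrin coats) had 122, 154 and 61.0 CPM in high-fat and 89.0 and 93.7 CPM in low-fat liver pull-down, against 38.5, 121 and 163 CPM in liver input. In VsWAT it had 58.8, 92.0 and 164 CPM in pull-down against 49.9, 73.1 and 117 CPM in input. Its fitted changes were −1.34 ± 0.36 SE in liver and −0.13 ± 0.26 SE in VsWAT, and the libraries overlapped in both. Snord15a (chr7:99482785-99482932, in Rps3), a guide of 28S methylation, had −1.68 ± 0.33 SE and −0.26 ± 0.22 SE. Snord88c had −2.32 ± 0.60 SE and −0.23 ± 0.43 SE, and Snord73a, in Rps3a1, −1.26 ± 0.40 SE and −1.42 ± 0.28 SE. In VsWAT CPM, Snord15a lay at 27.9 to 99.9 in pull-down against 25.2 to 62.4 in input. Snord88c lay at 2.71 to 38.0 against 4.98 to 20.6. Snord82 (chr1:86356260-86356327), in an intron of the nucleolin gene Ncl, had −1.77 ± 0.39 SE and −1.36 ± 0.32 SE, from 47.1 to 255 CPM in pull-down against 112 to 388 CPM in input of liver, and 109 to 492 CPM in pull-down against 366 to 576 CPM in input of VsWAT. Over the 40 members tested in both tissues the changes in liver and in VsWAT had r = 0.80 and rho = 0.75, given as a description.

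**Figure D2:**
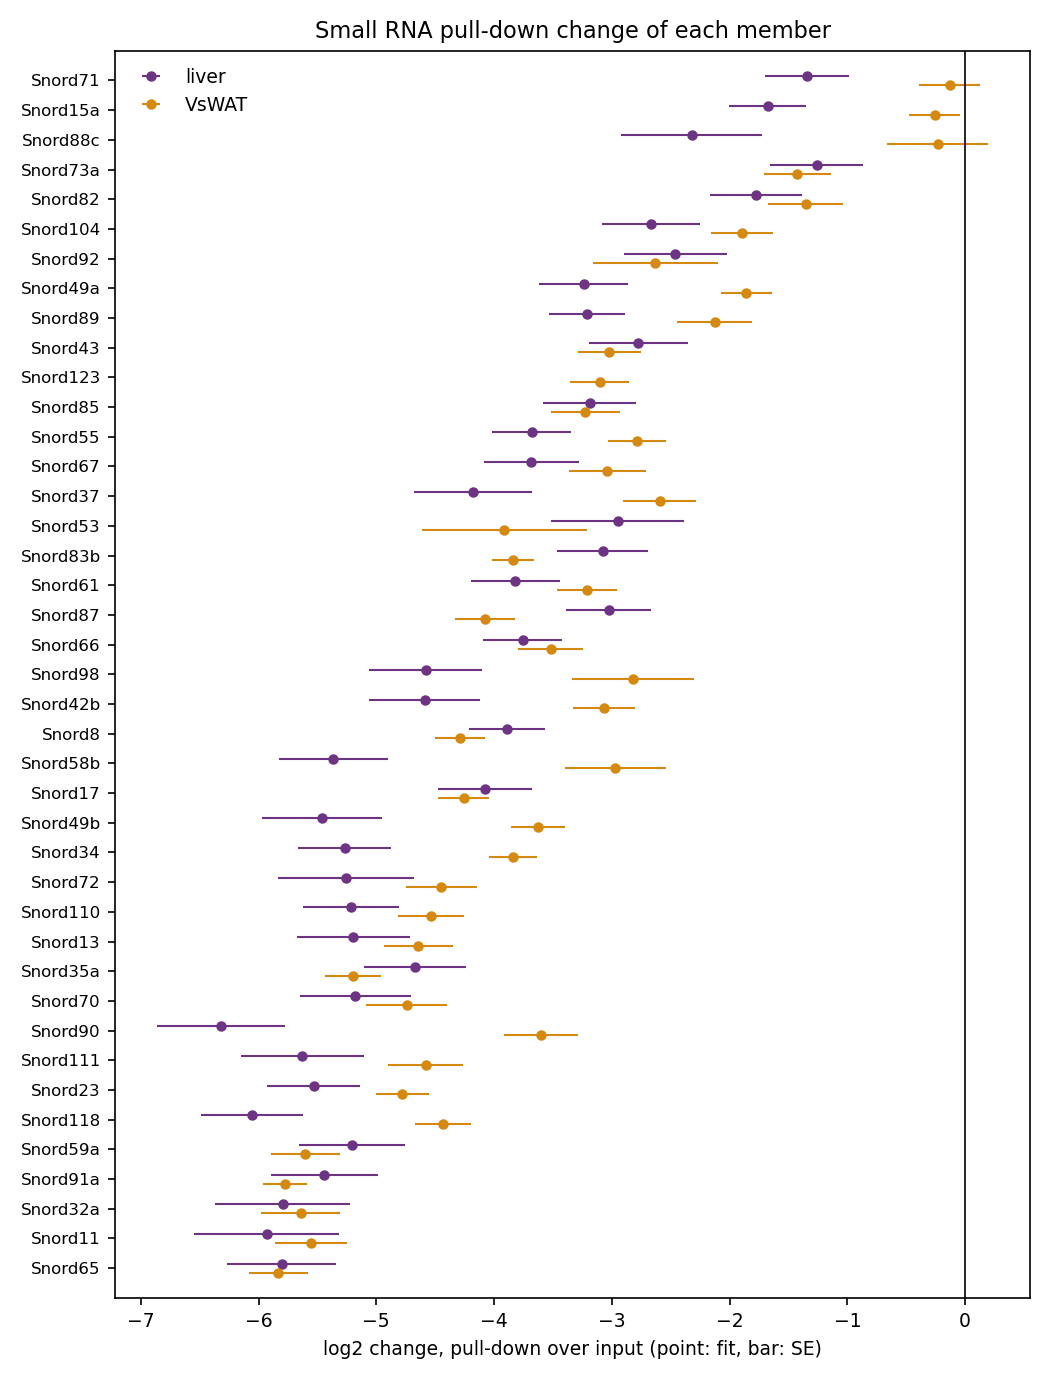
Log2 change of each tested member, pull-down over input, in small RNA of liver (purple) and VsWAT (orange), with the point at the edgeR fit and the bar at 1 SE; members are ordered by the mean of both. Snord65, Snord11 and Snord32a lie at the bottom and Snord71, Snord15a and Snord88c at the top; Snord90 is at −6.32 in liver and −3.60 in VsWAT.

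The ranking of members in pull-down therefore differed from that in input. In liver pull-down Snord104, Snord87, Snord49a, Snord82, Snord83b and Snord71 held 70.3% of member counts, Snord104 alone 38.2% (15.4% in liver input). In VsWAT pull-down the leading 6 were Snord49a, Snord82, Snord104, Snord37, Snord87 and Snord71, with 56.9%. Snord49a and Snord82 together took 14.7% of member counts in pull-down and 6.49% in input of liver, and 30.7% in pull-down and 8.77% in input of VsWAT.

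The pull-down libraries were not used to choose the members, so liver pull-down (n = 5) was tested against VsWAT pull-down (n = 6). Of 41 members that passed the filter, 12 were higher and 4 lower in liver (adjusted p under 0.05 over 11979 features), where 30.9% of features were called higher and 34.2% lower, 65.1% in all; called members were thus less common than called features in general, and the count is no result about the family. The split depends on scaling: total-count scaling gave 4 higher and 10 lower, with the median of all features at −0.56 in place of −0.11. Snord104, Snord87, Snord66, Snord91a and Snord90 kept their call and direction under all 30 alternatives run. Snord123 is not listed with them, since it passed the filter only through VsWAT, as given below.

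Snord104 led, with 823, 2080 and 1835 CPM in high-fat and 728 and 671 CPM in low-fat liver pull-down, against 128, 221 and 498 CPM (lowest, median and highest of 6) in VsWAT pull-down. The groups did not overlap (12.6% of features lay wholly higher), and the log2 difference was 2.60 ± 0.38 SE (edgeR adjusted p = 1.68e-06). Snord87 (chr1:9942470-9942543), within Snhg6 and Mcmdc2, had 220, 370 and 516 CPM in high-fat and 218 and 204 CPM in low-fat liver pull-down, against 53.9, 132 and 185 CPM in VsWAT pull-down, again without overlap, with a difference of 1.63 ± 0.31 SE (edgeR adjusted p = 6.2e-05). Snord66, in the translation factor gene Eif4g1, was higher by 1.57 ± 0.31 SE (edgeR adjusted p = 9.9e-05) and Snord91a by 1.23 ± 0.33 SE (edgeR adjusted p = 0.00233). Snord11, Snord13, Snord8, Snord59a, Snord35a, Snord85, Snord83b and Snord17 were higher by 0.69 to 1.22, with overlapping libraries; total-count scaling ended the call of each of these 8. Snord17 kept its call in only 8 of 30 alternatives, Snord11 in 22 (0.59, adjusted p = 0.279, without liver pull-down high-fat 2), Snord85 in 24, Snord59a in 27, and Snord13, Snord8, Snord35a and Snord83b in 28.

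Snord123 was the member furthest below VsWAT, with 1.20, 3.72 and 1.74 CPM in high-fat and 0.456 and 0.781 CPM in low-fat liver pull-down, against 6.59 to 28.8 CPM in VsWAT pull-down, no overlap (30.2% of features lay wholly lower) and a difference of −3.17 ± 0.48 SE. Its liver values rest on 14 counts over 5 libraries, and it passed the filter on low counts only through VsWAT (11 VsWAT libraries and 0 liver libraries reached 7.12 CPM), where it is high, so no p-value is given and its count among the lower members is a description. Snord90 (chr2:37400061-37400128), in Rc3h2, was lower by 1.70 log2 units, at 2.10 to 17.4 CPM in liver pull-down against 5.81 to 48.2 CPM in VsWAT pull-down, and its libraries overlapped (edgeR adjusted p = 0.00352). Snord42b and Snord15a were lower as well, at −1.12 ± 0.43 SE and −0.91 ± 0.30 SE, with overlapping libraries. Snord42b lay at 2.34 to 12.3 CPM in liver pull-down against 9.65 to 41.4 CPM in VsWAT pull-down. Snord15a lay at 12.2 to 32.9 CPM against 27.9 to 99.9 CPM. Their calls held in 27 and 29 of 30 alternatives. Snord118, Snord32a, Snord65, Snord49a and Snord82 did not pass the test.

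**Figure D3:**
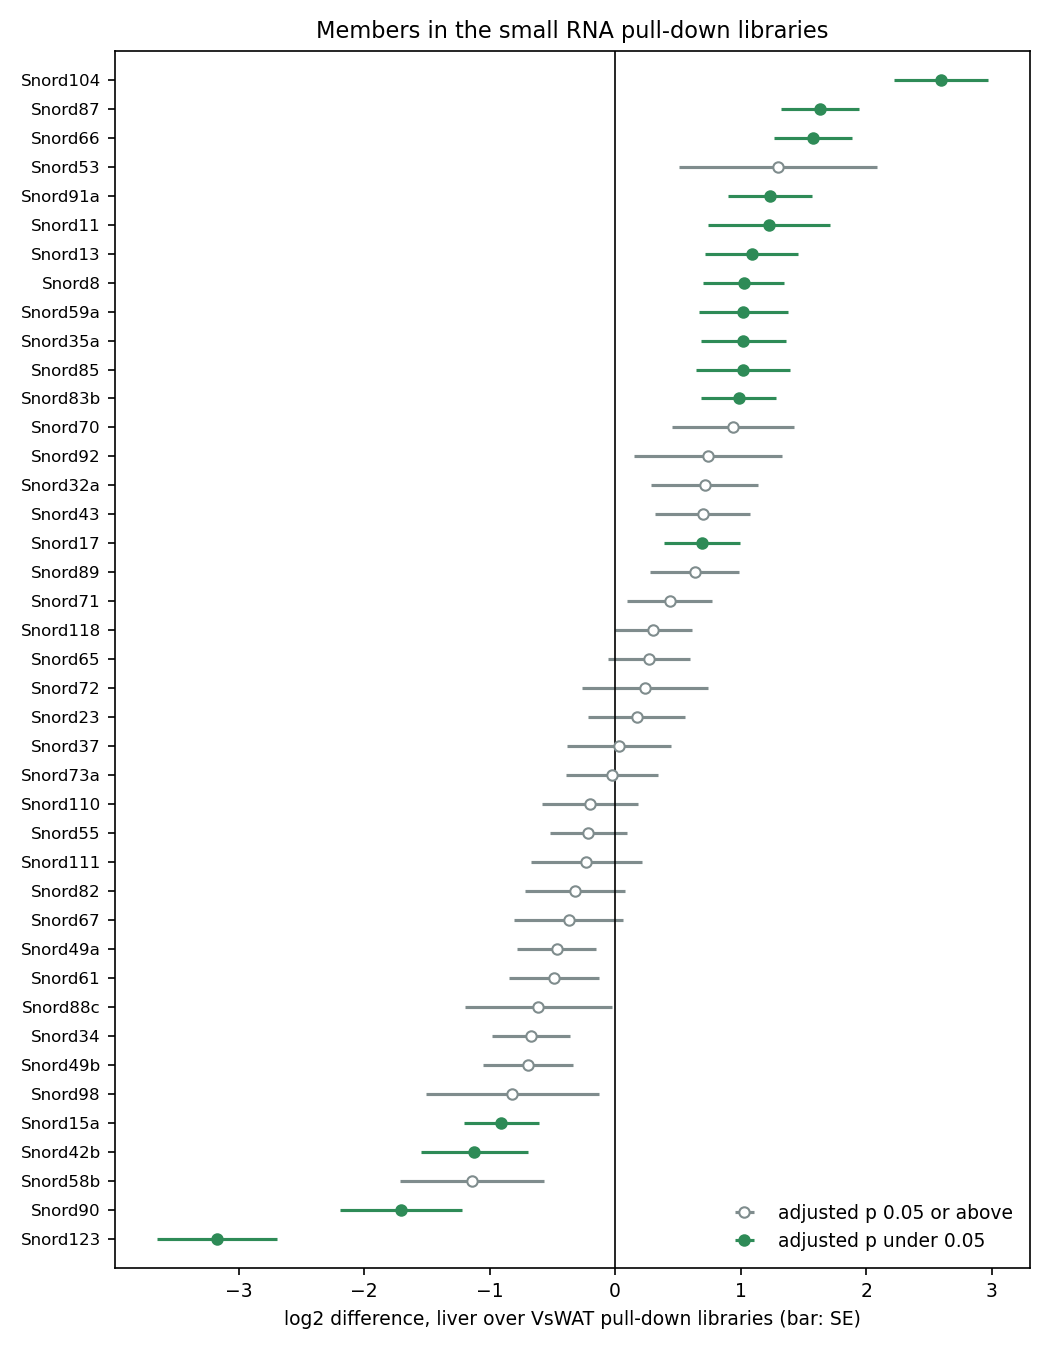
Log2 difference of each tested member between small RNA pull-down libraries, liver (n = 5) over VsWAT (n = 6), with bars of 1 SE; filled points have an edgeR adjusted p under 0.05. Snord104 is highest at 2.60, Snord87 follows at 1.63, and Snord123 is lowest at −3.17. Snord123 passed the filter on low counts only through VsWAT, so its filled point is a description.

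The change from input to pull-down was next compared between the tissues, as the change in liver minus the change in VsWAT. These values come from a joint fit of both tissues, so they differ slightly from the difference of the separate changes. They include the input counts that chose the members, so they are a description and no p-value is given. The fit called 5 of 41 members lower and 0 higher, where 4.72% of features were called lower and 7.7% in either direction, and nothing is read from that count. Snord90 had the lowest value, −2.60 ± 0.59 SE. Its input levels overlapped, at 120 to 312 CPM in liver and 152 to 391.9 CPM in VsWAT, while pull-down differed as given above. The other 4 were Snord58b, in Rpl17, with −2.28 ± 0.69 SE, Snord49b with −1.74 ± 0.48 SE, Snord118 with −1.52 ± 0.42 SE and Snord34 with −1.31 ± 0.40 SE. Under total-count scaling the median of all features was 0.35 in place of −0.05, and values of Snord58b, Snord49b, Snord118 and Snord34 were −1.78, −1.26, −1.05 and −0.85.

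Plasma had the fewest counts, and pull-down was patchy there. Of the 43 members 14 had no count in any plasma pull-down library and 3 had none in any plasma input library; 6 had counts in all 4 pull-down libraries and 34 in all 4 input libraries. Snord110 (chr2:130275515-130275573), in an intron of Nop56, led pull-down with 554, 196, 206 and 84 counts (high-fat 1 and 2, low-fat 1 and 2) against 138, 57, 53 and 44 counts in input, which is 856, 592, 890 and 379 CPM against 422, 68.8, 106 and 79.2 CPM. Snord87 had 72, 338, 117 and 21 counts in pull-down against 41, 53, 37 and 27 in input. Snord32a had 0, 40, 0 and 0 counts in pull-down against 24, 66, 40 and 43 in input, and Snord43 had 96, 0, 0 and 0 against 5, 28, 14 and 23. For Snord32a and Snord43, 1 library carried the whole pull-down signal.

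None of the 24 members that passed the filter was called between plasma pull-down and input (edgeR adjusted p under 0.05; 0.49% of 3469 features were called). At an unadjusted p under 0.05 there were 12, and the smallest edgeR adjusted p was 0.107 (Snord55). DESeq2 called 7 lower: Snord55, Snord83b, Snord32a, Snord61, Snord13, Snord118 and Snord11. Of these, Snord118 passed the filter in both fractions. The others passed it through input alone (0 or 1 pull-down library at 24 CPM or more), so their direction was favoured by the filter. In all, 10 of the 24 members passed through input alone, so counts of calls in plasma are descriptions. Without pull-down high-fat 2 the edgeR count was 10, without pull-down high-fat 1 it was 6, without input low-fat 2 it was 3 and without pull-down low-fat 1 it was 2. Snord104 had a change of −1.41 (95% interval −3.15 to 0.33) and Snord110 of 0.21 (−1.59 to 2.00), on a scale where total-count scaling moves the median of all features from 0.04 to 2.11. The libraries differ in blood cell and hepatocyte RNA as given above, and the part of this in these values was not tested.

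In total RNA of VsWAT, for which no pull-down was used, the members ranked differently from VsWAT small RNA input. Snord17, the longest member (chr2:144265982-144266202, in Snx5), led total RNA with 134.8 ± 31.5 CPM against 536.5 ± 86.0 CPM in small RNA input (SD, n = 6 each). Snord65 had 126 ± 45.8 CPM in total RNA and 2593 ± 610 CPM in small RNA input, and Snord87 134.7 ± 39.1 CPM and 1350 ± 335 CPM. The ratio of mean CPM, total over small RNA input, was highest for Snord73a (0.262), Snord17 (0.251), Snord70 (0.228) and Snord15a (0.222), and lowest for Snord23 (0.00479), Snord88c (0.00934) and Snord42b (0.0104). Length did not order these ratios, with r = 0.11 and rho = 0.07 over 43 members. The sets were prepared separately, so the ratios rank members within these libraries and are not recoveries.

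**Figure D4:**
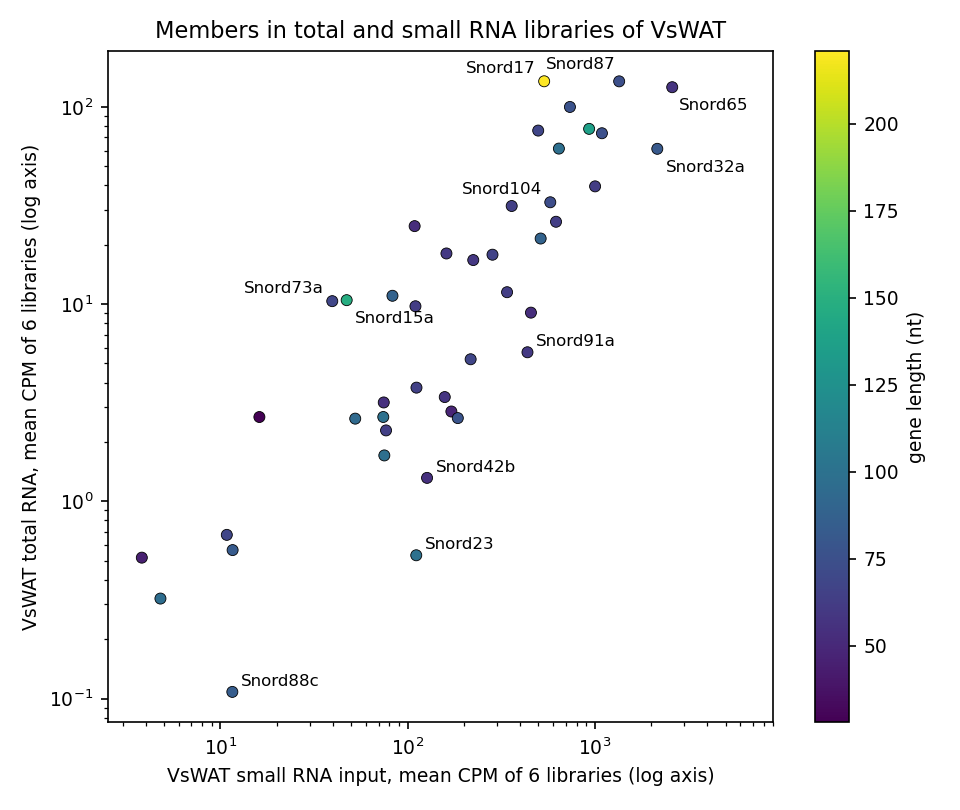
Mean CPM of each member in VsWAT total RNA (vertical, log axis, n = 6) against VsWAT small RNA input (horizontal, log axis, n = 6), coloured by gene length in nt. Snord17 reaches 134.8 CPM in total RNA from 536.5 CPM in small RNA input, while Snord23 lies lowest for its input level, at a ratio of 0.00479.

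In the mRNA libraries, which the rule did not use, U8 and U13 were lower in pull-down in both liver and kidney when diets were averaged. In low-fat liver, however, U13 pull-down overlapped input low-fat 2 and 3. Snord49a and Snord82 were higher in both tissues when diets were averaged. For Snord82 this did not hold within the high-fat liver libraries. Within the low-fat kidney libraries, pull-down and input overlapped for both genes. Few members could be tested. In liver 5 of 43 passed the filter on low counts, 2 higher and 2 lower, where 37.7% of 10865 features were called higher and 36.1% lower, 73.8% in all. In kidney 14 passed, 5 higher and 2 lower, where 26.6% of 15023 features were called higher and 26.4% lower, 53% in all. These counts say nothing of the family as a whole, since the filter let 8 of the 14 kidney members through on pull-down libraries alone (at least 2 at 0.967 CPM or more there, fewer in input) and Snord104 and Snord49a likewise in liver (at least 3 at 2.74 CPM or more). Reads of a snoRNA and of its unspliced host intron cover the same bases, and no source used here gives the counting mode or strand setting, so a member's value in these libraries may hold host intron reads. Cell type markers moved in the same comparison: in liver pull-down 8 of 8 tested hepatocyte, 5 of 5 macrophage, 4 of 4 endothelial and 4 of 4 erythroid markers were lower (medians −1.73, −2.43, −2.20 and −2.64), and in kidney pull-down 7 of 8 tubule markers (median −1.07); their part in the snoRNA values was not tested.

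Snord118 had 10, 16, 15, 13, 30 and 17 counts in liver mRNA pull-down (high-fat 1 to 3, then low-fat 1 to 3) against 73, 117, 84, 1468, 39 and 32 counts in input. The pull-down libraries lay at 2.26 to 8.20 CPM, all below the inputs at 8.56 to 484 CPM (14.8% of features lay wholly lower). The log2 change was −4.10 ± 0.99 SE (edgeR adjusted p = 0.00229). Input low-fat 1 carried most of its size: without that library the change was −1.84 (edgeR adjusted p = 2.22e-07). Snord13 had 21, 10, 10, 12, 25 and 11 counts in pull-down against 76, 80, 126, 946, 18 and 18 in input. Its change was −3.95 ± 1.00 SE (edgeR adjusted p = 0.00316), and −1.53 (edgeR adjusted p = 3.08e-06) without the same library. Its groups overlapped: low-fat pull-down lay at 3.03 to 6.83 CPM, against 4.17 and 4.81 CPM in input low-fat 2 and 3. High-fat pull-down lay at 2.94 to 4.74 CPM against 20.3 to 25.5 CPM in high-fat input. DESeq2 gave no adjusted p for either gene.

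In kidney the same genes fell without 1 library that carried most of the size. Snord13 had 2, 0, 2, 9 and 0 counts in kidney pull-down (high-fat 1 to 3, low-fat 1 and 2) against 255, 434, 493, 201 and 218 in input, at most 1.53 CPM against at least 15.6 CPM. Its log2 change was −5.98 ± 0.59 SE. It passed the filter through input, where it is high (1 pull-down and 5 input libraries at 0.967 CPM or more), so no p-value is given. Snord118 had 2, 4, 3, 10 and 2 counts in pull-down against 101, 154, 176, 106 and 84 in input, with a change of −3.93 ± 0.50 SE (edgeR adjusted p = 6.86e-05). Neither gene's groups overlapped (12.3% of features lay wholly lower). In 16 alternatives the fitted values ranged over −8.69 to −5.245 for Snord13 and −5.05 to −3.33 for Snord118. Together U8 and U13 made up 3.28% of member counts in kidney pull-down and 71.2% in kidney input, and 17.7% in liver pull-down and 89.9% in liver input.

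Snord49a, a ribosomal RNA methylation guide, moved the other way. In liver mRNA it had 40, 88, 45, 40, 31 and 24 counts in pull-down against 14, 9, 22, 2, 2 and 1 in input, or 6.61 to 26.0 CPM against 0.267 to 4.45 CPM. Only 2 of 6 input libraries reached the filter's 2.74 CPM, so the gene entered the test through pull-down, where it is high. No libraries overlapped (28.9% of features lay wholly higher), and the change was 2.93 ± 0.38 SE. The filter favoured this direction, so no p-value is given. The fitted value of Snord49a ranged over 2.67 to 3.16 in 19 alternatives. In kidney it had 26, 31, 64, 32 and 83 counts in pull-down against 13, 3, 5, 21 and 159 in input, or 5.44 to 12.5 CPM against 0.217 to 11.4 CPM. Here input low-fat 2 reached the pull-down range, and the change was 1.78 ± 0.43 SE (edgeR adjusted p = 0.00425). Within low-fat kidney, pull-down (5.44 and 6.05 CPM) overlapped input (2.635 and 11.4 CPM), so the rise is one of the average over diets.

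Snord82 was higher on average over diets, with input libraries that differed by diet. In liver mRNA it had 28, 27, 33, 44, 7 and 12 counts in pull-down against 33, 34 and 52 counts in high-fat input and 0, 0 and 1 in low-fat input. The change of 2.43 ± 0.63 SE (edgeR adjusted p = 0.00347) averages over diets that were unlike: in CPM, high-fat pull-down (6.33, 7.97 and 9.69) overlapped high-fat input (9.69, 8.64 and 10.5), and low-fat pull-down (1.91 to 12.9) lay above low-fat input (0 to 0.267). The fitted value ranged over 1.86 to 3.40 in 19 alternatives, all called. In kidney it had 23, 44, 41, 32 and 155 counts in pull-down against 33, 16, 10, 40 and 120 in input, with a change of 1.27 ± 0.39 SE (edgeR adjusted p = 0.0157), lost without input low-fat 1 (1.12, adjusted p = 0.058) or without pull-down low-fat 2 (0.93, adjusted p = 0.109). Within low-fat kidney, Snord82 pull-down (5.44 and 11.3 CPM) overlapped input (5.02 and 8.58 CPM). Snord49a and Snord82 together made up 39.1% of member counts in liver pull-down and 4.97% in liver input, and 51.2% in kidney pull-down and 13.5% in kidney input.

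Of the other members tested, Snord104 did not pass in either tissue, with −0.14 ± 0.61 SE in liver (edgeR adjusted p = 0.844) and −0.80 ± 0.90 SE in kidney (edgeR adjusted p = 0.473). Its kidney input counts were uneven, at 0, 45 and 52 in high-fat and 1 and 9 in low-fat libraries. Snord58b, Snord123 and Snord71 made up the rest of the 5 higher in kidney, on few counts, with changes of 2.31 ± 0.82 SE, 2.08 ± 0.70 SE and 1.97 ± 0.75 SE. Each passed the filter through pull-down alone (3 pull-down and 0 input libraries at 0.967 CPM or more), so their direction was favoured by the filter and no p-value is given. Snord58b had 12, 4, 1, 6 and 3 counts in pull-down against 1, 2, 1, 2 and 3 in input. Snord123 had 4, 3, 7, 4 and 18 counts in pull-down against 5, 1, 0, 2 and 5 in input, without overlap in CPM (25% of features lay wholly higher). Snord71 had 5, 2, 13, 1 and 22 counts in pull-down against 4, 2, 0, 3 and 8 in input. Without pull-down low-fat 2 the value of Snord71 was 0.73. The kidney count of called members was 4 without input high-fat 2, input low-fat 1, input low-fat 2 or pull-down low-fat 2, and 12 without pull-down high-fat 2.

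**Figure D5:**
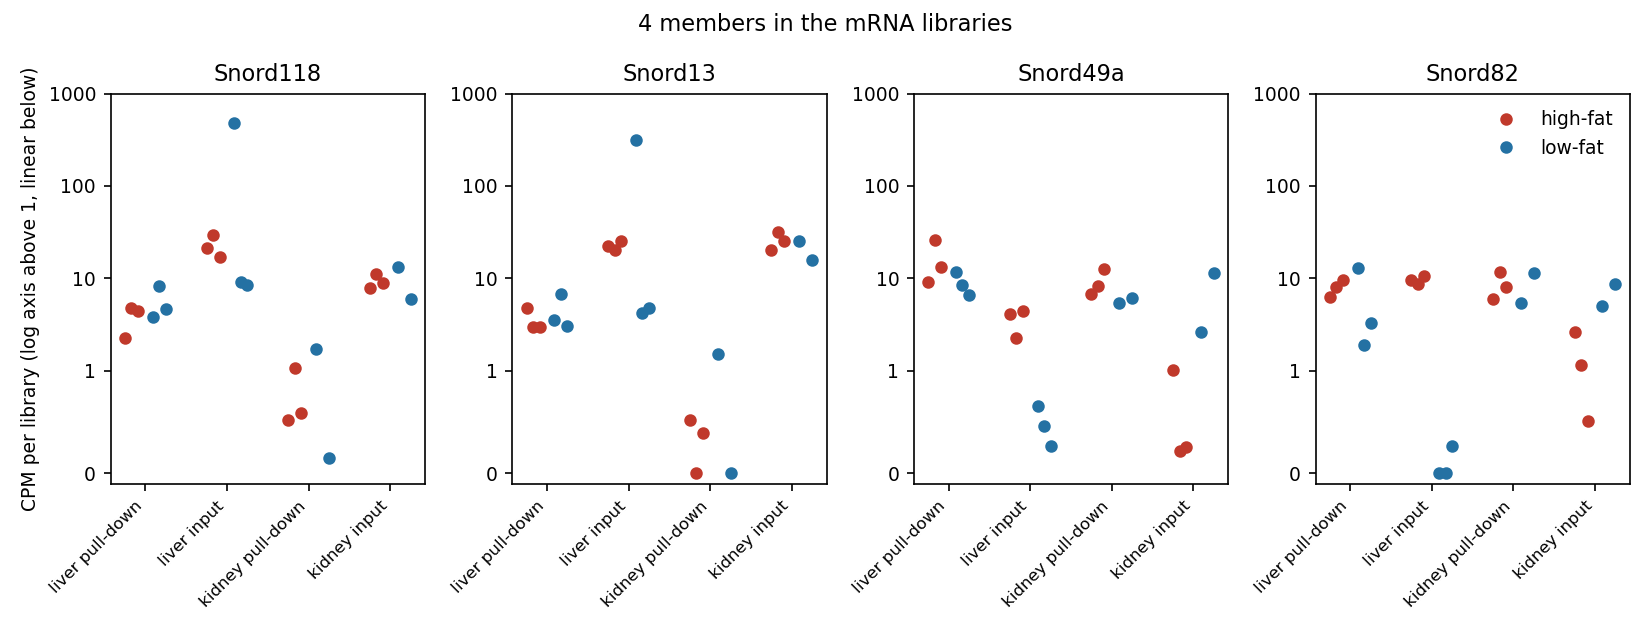
CPM of Snord118, Snord13, Snord49a and Snord82 in each mRNA library (log axis above 1, linear below), pull-down left of input for liver and then kidney, high-fat in red and low-fat in blue. Liver input low-fat 1 stands out at 484 CPM for Snord118, kidney pull-down of Snord13 is at most 1.53 CPM, and Snord82 is at 0 to 0.267 CPM in low-fat liver input.

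The messenger RNAs of the machinery around these RNAs were read in the same libraries, from lists of pathway genes. Of the core snoRNP proteins 3 of 4 were higher in liver pull-down: Nop56 (1.28 ± 0.17 SE, edgeR adjusted p = 2.59e-05), Nop58 (0.99 ± 0.15 SE) and the methyltransferase Fbl (0.46 ± 0.19 SE), whereas Snu13 did not pass (−0.45 ± 0.23 SE). In kidney Nop56 (1.49 ± 0.29 SE) and Fbl (0.73 ± 0.29 SE) were higher, Snu13 was lower (−0.81 ± 0.30 SE) and Nop58 did not pass. Of 7 assembly factors 1 was higher and 2 lower in each tissue; Pih1d1, of the R2TP chaperone complex, fell in both (−1.34 ± 0.21 SE and −1.46 ± 0.23 SE). Of 16 proteins of U3 particles and the small subunit processome 13 were higher and 0 lower in liver (median 0.80), and 12 higher and 1 lower in kidney (median 0.59). Thumpd1, a partner of the acetyltransferase Nat10, rose in both (1.37 ± 0.13 SE and 1.26 ± 0.17 SE), and Nat10 rose in kidney (1.00 ± 0.22 SE). Of 14 genes of intron debranching, trimming and decay 10 were higher and 2 lower in liver, and 7 higher and 0 lower in kidney. Of all features 37.7% were higher and 36.1% lower in liver, and 26.6% higher and 26.4% lower in kidney; whether the lists differ from this was not tested.

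Host genes went both ways. Of 30 tested hosts of members 13 were higher and 14 lower in liver pull-down, with a median of −0.10, and of 34 in kidney 13 were higher and 10 lower, with a median of 0.03. A longer list of 53 C/D snoRNA host genes leaned lower. Of 48 tested in liver 16 were higher and 28 lower (median −0.86), and of 52 in kidney 17 were higher and 19 lower (median −0.28). Whether either set of hosts differs from all features was not tested. Rpl13a was lower in both tissues (−0.99 ± 0.19 SE and −0.95 ± 0.22 SE), as were Rpl3 (−1.62 ± 0.19 SE and −1.33 ± 0.17 SE) and Rps3 (−1.79 ± 0.21 SE and −1.46 ± 0.28 SE). Ncl, host of Snord82, was higher (0.32 ± 0.10 SE and 0.67 ± 0.14 SE), and Wdr43 too (1.24 ± 0.09 SE and 1.04 ± 0.14 SE). 2410006H16Rik, host of Snord49a, did not pass in liver (−0.73 ± 0.32 SE, edgeR adjusted p = 0.0559) and was lower in kidney (−1.22 ± 0.23 SE). Snord49a itself was higher in both on average over diets, with overlap in kidney.

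Diet was compared within each fraction, and no member was called in the 5 comparisons run, in liver and VsWAT small RNA and VsWAT total RNA (edgeR adjusted p under 0.05). In liver small RNA, 40 members were tested: high-fat over low-fat medians were 0.21 in pull-down and −0.14 in input, with 0.0357% and 0.202% of features called, and 5 and 0 members at an unadjusted p under 0.05. In VsWAT small RNA, 41 members were tested, with medians of 0.75 in pull-down and −0.15 in input, 0.406% and 0.0794% of features called, and 18 and 2 members at an unadjusted p under 0.05. In VsWAT total RNA, 35 were tested, with a median of −0.60, 0.278% of features called and 6 members at an unadjusted p under 0.05. DESeq2 called 2 members higher in VsWAT pull-down (Snord34, Snord43), 2 lower in VsWAT total RNA (Snord32a, Snord83b) and none in the other 3.

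The VsWAT values leaned to one side although no gene passed. In VsWAT pull-down 40 of 41 members had a positive value, beside a median of 0.01 over all features, and 12 had every high-fat library above every low-fat one (6.26% of features did). Snord34 had 56.0, 41.8 and 35.9 CPM in high-fat pull-down against 25.6, 16.4 and 19.8 CPM in low-fat pull-down, a difference of 1.08 (95% interval 0.54 to 1.62; edgeR adjusted p = 0.128). Snord43 had 70.6, 44.5 and 43.04 CPM on high fat against 26.6, 25.6 and 8.53 CPM on low fat, a difference of 1.41 (edgeR adjusted p = 0.148). In total RNA of the same tissue 34 of 35 members had a negative value, beside a median of −0.01 over all features. Snord32a had 57.0, 37.3 and 45.4 CPM in high-fat total RNA against 101, 63.4 and 63.6 CPM in low-fat total RNA, all lower (2.41% of features were), a difference of −0.92 (95% interval −1.43 to −0.42; edgeR adjusted p = 0.208). H/ACA genes had medians of 0.58 in pull-down and −0.56 in total RNA, and microRNA genes 0.69 and −0.75. Members of one library share its depth and quality, so counts of genes on one side are not independent, and the difference between the sets was not tested.

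In liver pull-down the highest diet values were those of Snord85 (1.78, 95% interval 0.61 to 2.96) and Snord104 (1.43, 0.28 to 2.58), neither called (edgeR adjusted p = 0.364 and 0.487). Snord104 had 823, 2080 and 1835 CPM in high-fat pull-down against 728 and 671 CPM in low-fat pull-down, without overlap (6.4% of features lay wholly higher). Diet was not tested in mRNA or plasma. There, liver mRNA input had 14, 9 and 22 counts of Snord49a on high fat against 2, 2 and 1 on low fat, beside the 33, 34 and 52 against 0, 0 and 1 of Snord82 given above; both were picked after their values were seen. Snord32a, of the Rpl13a group, had 76.7, 110 and 26.2 CPM in high-fat liver pull-down against 90.8 and 76.5 CPM in low-fat, so its groups overlapped.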

How the data were processed

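Each library's file, as the authors deposited it, holds raw read counts per annotated feature. The submitters' processing notes name STAR, HTSeq and mm10; no source used here gives their versions, the annotation release, the strand setting or the treatment of reads that match several places or features. Per the labels' protocols, tissue RNA was extracted with NucleoZOL and plasma RNA with Tri reagent BD, and all libraries, those named mRNA too, were made with a CATS small RNA kit (Diagenode), which tails RNA and copies it by template switching. Fragmentation and a poly(A) step are not given in these sources, so a count over a snoRNA gene holds any read over its locus.

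All 59 libraries were placed in 22 groups from their titles and labels. Counts were fitted with edgeR 4.0.16 (R 4.3.3, limma 3.58.1) separately in 6 sets: TMM factors, a low-count filter (filterByExpr on the groups, with a minimum count of 10 and a minimum total of 15), a mean for every group, and F tests by quasi-likelihood. Both small RNA tissues entered 1 fit for differences between liver and VsWAT. Adjusted p is the Benjamini-Hochberg value over all tested features, called at 0.05, and SE is the log2 change divided by the square root of F. Intervals are 1.96 SE to either side. Pull-down against input averages both diets. DESeq2 1.42.0 and other settings served as alternatives. The fit was tested on simulated counts. Positions, hosts and promoter sequences are from RefSeq tables of GRCm38.p6; no snoRNA sequence was used here. The members and gene lists were chosen with earlier results of these data known, so counts over them are descriptions. The named genes are members fixed by name, those with the largest called changes at or above the median level in a comparison, the 6 with the highest mean in each set, and those nearest the 30-count rule; the text prints a part of them. Genes picked after their values were seen are Snord43, Snord55, Snord58b, Snord88c, Snord73a, Snord123 and those named for low ratios.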

Additional observations from a re-analysis of the deposited data

Results flagged for a closer look

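The change from input to pull-down differed most between liver and VsWAT for 5 members, by the joint fit of both tissues. That fit uses the input libraries whose counts chose the members, so it is no independent test, and the values stand as a description with no p-value. They are log2 change in liver minus log2 change in VsWAT, followed by the change from each tissue's own fit. Snord90 had −2.60, from −6.32 in liver and −3.60 in VsWAT. Snord58b had −2.28, from −5.36 and −2.97. Snord49b had −1.74, from −5.46 and −3.63. Snord118 had −1.52, from −6.05 and −4.43. Snord34 had −1.31, from −5.27 and −3.84. Over 29 alternatives the value ranged over −2.91 to −2.15 for Snord90 and −2.73 to −1.59 for Snord58b. It ranged over −1.99 to −1.26 for Snord49b, −1.78 to −1.05 for Snord118 and −1.53 to −0.85 for Snord34. In pull-down libraries alone Snord90 was lower in liver than in VsWAT, and the other 4 did not pass that test.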

How the results depend on the processing

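The alternatives were RLE and total-count scaling, no filter on low counts, DESeq2, only the groups compared, a replicate block, each library left out in turn and all 99 Snord features as members; summing the close liver input pairs was added after seeing the data and left 4 calls in liver mRNA, with Snord118 at −4.45 and Snord13 at −4.26. Over the 32 named member results 688 values kept their call and direction, 120 lost the call and 0 reversed. Some of these results are given above as descriptions with no p-value, and for them a kept call is no support. The counts for the difference in pull-down change rest partly on the inputs that chose the members and are descriptions; leaving out 1 library gave the lowest, 1, without liver pull-down high-fat 1 or low-fat 3 or VsWAT input low-fat 2, and the highest, 8, without liver input high-fat 1. Counts of called members that moved by over 1.5 times were these. Without the filter, where features with very few counts are tested, they were 9 in liver mRNA, 1 in liver pull-down by diet, 12 in VsWAT pull-down by diet, 10 in VsWAT total RNA by diet and 11 for the difference in pull-down change between tissues. DESeq2 gave 2 in liver mRNA, since it left 2 genes without an adjusted p, 7 in plasma, 2 in VsWAT pull-down by diet and 2 in VsWAT total RNA by diet. Total-count scaling gave 3 for the difference in pull-down change. Leaving out 1 library gave 4 to 12 in kidney mRNA, 0 to 10 in plasma, 0 to 1 in VsWAT pull-down and in VsWAT total RNA by diet, and 1 to 8 for the difference in pull-down change; where only 1 library is left (plasma, low-fat kidney, low-fat liver pull-down), the fit takes its spread from the remaining groups. Where the number of features tested or an absent adjusted p does not account for it by construction, the cause was not tested. Same-numbered pull-down and input libraries did not deviate together beyond 0.1 in every pair of any set (0.06 to 0.21 in liver small RNA, 0.06 to 0.32 in VsWAT), so numbers were not taken as pairs in these comparisons. Same-numbered libraries of the 2 diets did exceed 0.1 in each of 3 pairs for liver mRNA pull-down (0.108 to 0.124). They also did in each of 2 pairs for kidney mRNA input (0.351 and 0.41). Diet comparisons were not run in these groups, and 0.1 was not exceeded in each pair of those that were. The pull-down changes in liver and kidney mRNA were fitted with no term for a number shared between diets. A replicate block by number gave 4 calls in kidney mRNA, 1 in VsWAT pull-down by diet and 9 for the difference in pull-down change (1 higher, 8 lower). It ended the kidney calls of Snord58b, Snord71 and Snord123 (2.03, 1.79 and 2.20), and put Snord118 at −2.94 and Snord13 at −2.92 in liver mRNA. In plasma, the shallowest set, 19 of 43 members were too low to test; in liver and kidney mRNA, which are deeper but where members are a small share of counts, 38 and 29 were.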
